A study of Homo sapiens with 4 samples.

Results

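The 10 genes described here encode the protein machinery that makes microRNAs and puts them to work: the nuclear Microprocessor (DROSHA and DGCR8), the export receptor XPO5, the cytoplasmic processing pair DICER1 and TARBP2, the Argonautes AGO1, AGO2, AGO3 and AGO4, and the silencing scaffold TNRC6A. They were chosen by symbol, and all 10 had a row among the 22494 features of the deposited tables. Poly(A) RNA was sequenced from HEC-1-A and RL-95-2, both established human endometrial cancer cell lines, after transfection with a mimic of the tRNA-derived fragment tRF-20-S998LO9D or with a negative control of mimics. The groups are RL-95-2 with the mimic, RL-95-2 with the negative control, HEC-1-A with the mimic and HEC-1-A with the negative control, with 1 library each. The labels give no dose and no time after transfection, and nothing in them says whether the cultures of a line were separate.

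MicroRNAs are made in steps. In the nucleus, DROSHA, an endonuclease, cuts a hairpin out of a long primary transcript while its partner DGCR8 holds the hairpin, and exportin 5, the product of XPO5, carries the hairpin to the cytoplasm with the GTPase RAN. There DICER1 cuts off the loop, with TARBP2, a double-stranded RNA binding protein, at its side, and a strand of the duplex is loaded into an Argonaute. TNRC6A, a GW182 protein, links the Argonaute to the enzymes that shorten the poly(A) tail of the target mRNA, and AGO2 can also cut a target itself. Fragments of tRNA can be bound by Argonautes as well. Poly(A) RNA shows the mRNAs of these proteins, not the small RNAs.

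DGCR8 carries hairpins inside its own mRNA, and the Microprocessor is known to cut the DGCR8 mRNA at such a hairpin, so that DROSHA and DGCR8 feed back on DGCR8. RefSeq (GRCh38.p14) lists mature miRNAs within exons of DGCR8, and a further pair within an intron of DICER1. The DGCR8 sequences are shown because they mark the self-cleavage region of the member whose mRNA was furthest above its control in RL-95-2. In HEC-1-A, DGCR8 mRNA was below its control, and a link of its level to self-cleavage was not tested. The DICER1 pair is shown for contrast. They run 5′ to 3′, and the capitals mark the seed, bases 2 to 8.
hsa-miR-3618 (chr22:20085797-20085818, plus strand, exon of DGCR8): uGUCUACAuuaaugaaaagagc
hsa-miR-1306-5p (chr22:20086072-20086093, plus strand, exon of DGCR8): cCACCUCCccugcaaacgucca
hsa-miR-1306-3p (chr22:20086112-20086129, plus strand, exon of DGCR8): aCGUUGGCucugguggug
hsa-miR-3173-5p (chr14:95137961-95137982, minus strand, intron of DICER1): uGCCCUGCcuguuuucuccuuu
hsa-miR-3173-3p (chr14:95137923-95137944, minus strand, intron of DICER1): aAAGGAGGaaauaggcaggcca
These 5 miRNAs share no seed with each other. Their own levels were not measured, since no symbol of the deposited tables begins with MIR and a number.

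The libraries held 33575882 to 46220053 counts, and the 10 members together took 0.0832% to 0.0998% of them, with 414 to 10934 counts per member and library. All 10 passed the filter on low counts and averaged at least 1 CPM in each line. Checked against the label, all 10 epithelial markers averaged at least 1 CPM in both lines, but at unlike levels. EPCAM was at 76.9 to 132 FPKM, while MUC1 was low in all 4 libraries, at 0.437 to 0.989 FPKM. CLDN3 had 1.13 FPKM in the RL-95-2 mimic and 1.99 FPKM in the RL-95-2 control library. In HEC-1-A, CLDN3 had 18.1 FPKM with the mimic and 19.4 FPKM with the control. KRT8, a keratin on that list, had 728 FPKM in the RL-95-2 mimic and 171 FPKM in the RL-95-2 control library, against 36.1 FPKM in the HEC-1-A mimic and 44.6 FPKM in the HEC-1-A control library. Blood cell markers summed to 6.02 CPM in the RL-95-2 mimic, 7.82 CPM in the RL-95-2 control, 1.21 CPM in the HEC-1-A mimic and 0.845 CPM in the HEC-1-A control library, with HBB at 0 throughout and PTPRC at 0 in both RL-95-2 libraries. Endothelial markers summed to 25.2 CPM in the RL-95-2 mimic, 14.4 CPM in the RL-95-2 control, 0.447 CPM in the HEC-1-A mimic and 0.0906 CPM in the HEC-1-A control library. CDH5 was the single one of the 4 to average 1 CPM, in RL-95-2, where PECAM1 was at 0. Fibroblast markers summed to 58.9 CPM in the RL-95-2 mimic, 81.2 CPM in the RL-95-2 control, 7.80 CPM in the HEC-1-A mimic and 4.04 CPM in the HEC-1-A control library, with 2 of 6 measured in RL-95-2, COL1A1 at 10.8 and 12.0 FPKM there, and DCN and COL1A2 at 0 in every library. The part of these markers in the members' values was not tested.

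Among the members, XPO5 mRNA was the most abundant and AGO3 and AGO4 mRNA the least. On the FPKM scale, which allows for transcript length, XPO5 averaged 32.99 ± 5.91 over the 4 libraries (SD), with a range of 25.3 to 39.3. DROSHA followed at 13.3 ± 1.25 FPKM, TNRC6A at 12.1 ± 2.14, AGO2 at 11.7 ± 0.690, DICER1 at 10.7 ± 3.87, DGCR8 at 10.3 ± 5.56 and TARBP2 at 9.54 ± 4.31. The ranges of neighbours in this middle stretch overlapped, so its order is not fixed beyond the spread between libraries. AGO1 lay lower at 4.92 ± 0.985 FPKM, apart from both TARBP2 above and AGO4 below. AGO4 at 2.83 ± 1.05 and AGO3 at 2.22 ± 0.233 FPKM overlapped each other. XPO5 led in both lines, and DICER1 ranked second in RL-95-2 and at place 5 in HEC-1-A.

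**Figure D1:**
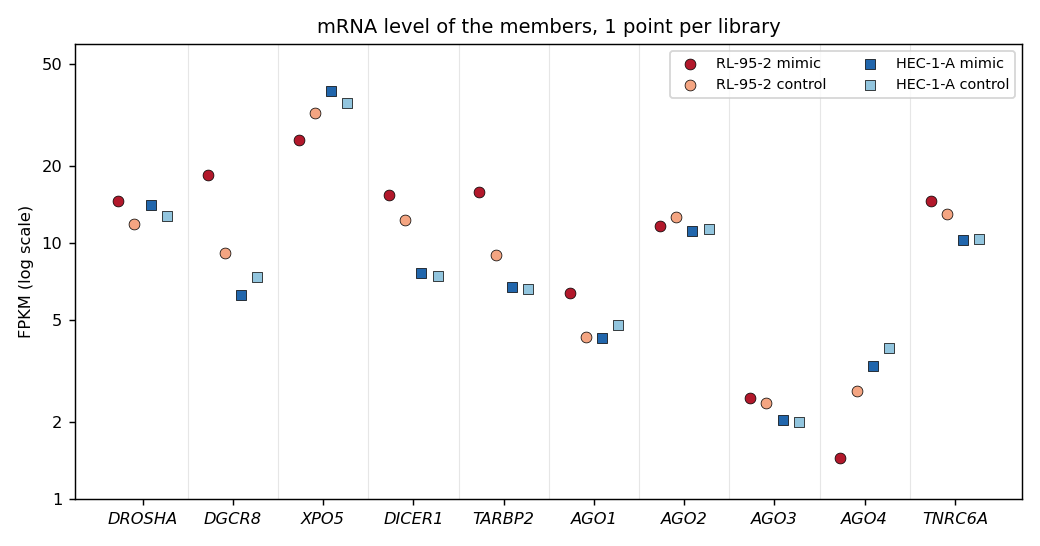
FPKM (log axis) of each member in the 4 libraries, with 1 point per library: RL-95-2 mimic, RL-95-2 control, HEC-1-A mimic and HEC-1-A control from left to right within a gene. XPO5 lies between 25.3 and 39.3 FPKM, and the RL-95-2 mimic library is the highest for DGCR8 (18.5) and TARBP2 (15.8) and the lowest for AGO4 (1.44).

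The lines differed in DICER1, the member that cuts hairpins to their mature length. DICER1 stood at 157 and 140 CPM in the mimic and control libraries of RL-95-2, against 84.2 and 80.1 CPM in those of HEC-1-A. Both RL-95-2 libraries lay above both HEC-1-A libraries, and the lines did not overlap. The RL-95-2 over HEC-1-A log2 fold change of DICER1 was 0.85 (SE 0.23, n = 2 libraries per line, edgeR quasi-likelihood adjusted p = 0.0286). Its value was 0.90 between the mimic libraries alone and 0.81 between the control libraries alone. DICER1 lies on chromosome 14 at 95086228 to 95158010 on the minus strand (GRCh38) and shares 0.651% of its exon bases with the antisense gene DICER1-AS1.

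DICER1 was 1 of 10 members called between the lines, where 35.1% of the 15957 features tested were called (18.3% higher and 16.7% lower in RL-95-2), a smaller share than that of all features. The 2 libraries of a line differ in transfection, and the model has a term for the mimic effect that the lines share, so the spread in this test is what differs in that effect between the lines. In bulk RNA, fewer cells of a kind and less RNA per cell cannot be told apart. AGO4 had a line log2 fold change of -0.93 (edgeR adjusted p = 0.0533), DGCR8 0.89 (adjusted p = 0.0710) and TARBP2 0.82 (adjusted p = 0.0752), and none of the 3 was called, although AGO4 was with at least 1 CPM required in all 4 libraries (adjusted p = 0.0477) and DGCR8 and TARBP2 were on log2(FPKM + 0.1) with limma (adjusted p = 0.0358 and 0.0418). For these, the line difference was -1.33, 1.43 and 1.13 between the mimic libraries, and -0.53, 0.35 and 0.50 between the control libraries. Most of their difference between the lines was thus seen in the libraries with the mimic. The other line log2 fold changes were 0.39 for TNRC6A, 0.17 for AGO3 and AGO1, 0.04 for AGO2, -0.05 for DROSHA and -0.44 for XPO5, with adjusted p of 0.223 to 0.927. In 7 of 10 members the CPM of the lines did not overlap, as in 75.5% of all features tested.

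In RL-95-2, the mRNAs of DGCR8 and TARBP2 were higher and that of AGO4 lower in the mimic library. DGCR8 was 1.84-fold higher, TARBP2 1.62-fold higher and AGO4 2.01-fold lower than in the control library. The log2 ratio given from here on is that of CPM scaled by TMM (trimmed mean of M values, which sets libraries to a common level), mimic over control within a line. Its 95% interval covers counting error only, since 1 library stands against 1 and no p-value was computed within a line. AGO4 was the single member of 10 at least 2-fold apart in RL-95-2, where 11.2% of 13151 measured features were. The 3 members at least 1.5-fold apart compare with 30% of features. The members' shares in RL-95-2 were therefore near those of all features.

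In HEC-1-A, none of the 10 members was 2-fold or 1.5-fold apart, where 1.11% and 4.75% of 12981 measured features were. The widest HEC-1-A log2 ratios were -0.21 for AGO4, -0.20 for DGCR8 and 0.19 for XPO5. The median log2 ratio of the members was 0.10 in RL-95-2 and -0.02 in HEC-1-A, against 0.00 and 0.02 over all measured features, and the HEC-1-A median of the members was 0.00 on both FPKM scales. In RL-95-2 the members' median was 0.23 with scaling by library total, where that of all features was 0.13, 0.22 and 0.24 on log2(FPKM + 1) and log2(FPKM + 0.1), where that of all features was 0.11 and 0.14, and 0.25 with GC and length trends removed, where that of all features was 0.03. Above 0 were 6 of 10 members in RL-95-2 (50.1% of features; 7 of 10 on both FPKM scales and with those trends removed) and 4 of 10 in HEC-1-A (53.6%). Counting intervals left out 0 for 9 of 10 members in RL-95-2 (80.4% of features) and 6 of 10 in HEC-1-A (53% of features), which shows how little counting error limits these libraries. Among the 6 is DICER1, with a lower limit of 9.98e-05 in HEC-1-A.

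Over both lines, the edgeR test called 0 of 10 members between mimic and control, as it called 0% of all 15957 features. Of those, 167 had an unadjusted p under 0.05, none of them a member, DESeq2 called 2 features and limma-voom 0. The edgeR adjusted p of each member was 0.9999. The fit had 1 residual degree of freedom, and a p that misses the threshold does not show that a member stayed level. The line-averaged log2 fold changes ran from -0.61 for AGO4 (SE 0.30) to 0.38 for TARBP2 (SE 0.29).

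**Figure D2:**
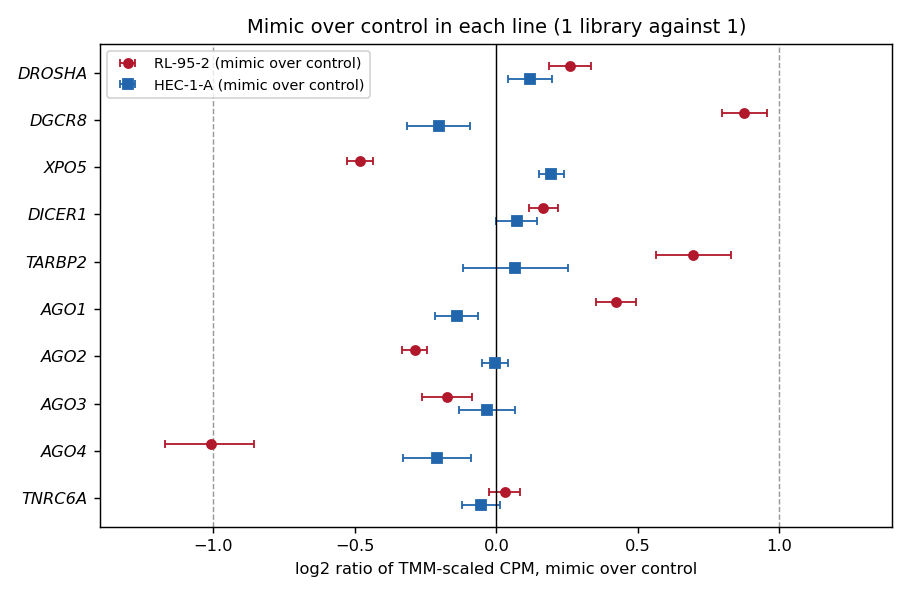
Log2 ratio of TMM-scaled CPM, mimic over control, for each member in RL-95-2 (circles) and HEC-1-A (squares), with 95% counting intervals and dashed lines at a 2-fold difference. AGO4 at -1.01 and DGCR8 at 0.88 in RL-95-2 lie furthest from 0, and all HEC-1-A points lie within 0.21 of it.

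Within the Microprocessor, DGCR8 mRNA was higher and DROSHA mRNA close to its control in RL-95-2. DGCR8 had 87.6 CPM in the mimic library, against 47.7 CPM in the control library of RL-95-2. In HEC-1-A, DGCR8 had 32.5 CPM with the mimic, against 37.5 CPM with the control. The RL-95-2 mimic library stood above the other 3, which lay within 32.5 to 47.7 CPM. The DGCR8 log2 ratio was 0.88 (interval 0.80 to 0.96) in RL-95-2 and -0.20 (interval -0.31 to -0.09) in HEC-1-A, so the lines lay on opposite sides of 0.

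DROSHA had 74.7 CPM with the mimic, against 62.4 CPM with the control in RL-95-2, and 73.7 CPM with the mimic, against 67.9 CPM with the control in HEC-1-A. The 4 DROSHA values were close together, with the mimic library the higher in each line. The DROSHA log2 ratio was 0.26 (interval 0.19 to 0.34) in RL-95-2 and 0.12 (interval 0.04 to 0.20) in HEC-1-A. On the FPKM scale, the ratio of DROSHA to DGCR8 mRNA was 0.794 in the RL-95-2 mimic and 1.30 in the RL-95-2 control library, against 2.24 in the HEC-1-A mimic and 1.74 in the HEC-1-A control library. DGCR8 mRNA thus outnumbered DROSHA mRNA per length in the RL-95-2 mimic library alone among the 4.

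DGCR8 lies on chromosome 22 at 20080232 to 20111877 on the plus strand (GRCh38). GENCODE places an antisense gene, AC006547.2, over 7.19% of its exon bases, and the strand setting of the counts is not given in the sources used here, so reads of either strand cannot be told apart there. The 3 exonic miRNAs printed above lie in this gene, in the stretch where the Microprocessor is known to cut.

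The region before the DGCR8 start is shown beside that of TARBP2, since mimic over control in RL-95-2 was above 1.5-fold for both. Each is printed 5′ to 3′ on the plus strand from RefSeq (GRCh38.p14), from 250 to 11 bases before the first listed start, 240 bases in all. Capitals mark CCAAT, the box bound by the factor NF-Y, or ATTGG, the same box on the other strand.
DGCR8 (chr22:20079991-20080230): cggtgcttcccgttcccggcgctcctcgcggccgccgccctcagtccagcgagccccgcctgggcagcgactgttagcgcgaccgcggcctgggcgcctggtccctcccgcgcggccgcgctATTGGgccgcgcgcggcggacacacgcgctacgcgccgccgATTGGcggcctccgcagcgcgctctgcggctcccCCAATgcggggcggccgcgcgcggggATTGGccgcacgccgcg
TARBP2 (chr12:53500673-53500912): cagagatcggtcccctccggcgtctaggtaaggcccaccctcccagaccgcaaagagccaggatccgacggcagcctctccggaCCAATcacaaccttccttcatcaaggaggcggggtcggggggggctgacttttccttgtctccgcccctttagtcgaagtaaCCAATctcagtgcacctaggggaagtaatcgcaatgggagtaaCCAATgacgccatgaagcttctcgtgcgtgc
DGCR8 held 4 and TARBP2 3 such boxes, in windows with a GC content of 80% and 58.8%. RefSeq lists 3 starts for TARBP2, and the windows before its other starts held 0 and 1 box. Of all 35116 RefSeq promoter windows of this length, 31.4% held the box at least once, 2.83% at least 3 times and 0.832% at least 4 times, both strands searched. At the first listed start, 6 of the 9 members with an entry held the box. Beside DGCR8 and TARBP2 these were DROSHA with 3, and AGO1, DICER1 and TNRC6A with 1 each, while AGO4, AGO3 and XPO5 held 0. The 31.4% is over every listed start and not the first alone, so these shares are of unlike sets. A link of the box to mimic over control was not tested. Neither printed window held CACGTG or TGACGTCA, and GGGCGG was found on either strand in both (41.4% of all windows). A box in the letters describes the sequence and no binding was measured.

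XPO5, the export receptor, lay on the other side of its control from DGCR8 in each line. XPO5 had 143 CPM in the mimic library, against 199 CPM in the control library of RL-95-2. In HEC-1-A, XPO5 had 244 CPM with the mimic, against 213 CPM with the control. The RL-95-2 mimic library was the lowest of the 4 and the HEC-1-A mimic library the highest. The XPO5 log2 ratio was -0.48 (interval -0.53 to -0.43) in RL-95-2 and 0.19 (interval 0.15 to 0.24) in HEC-1-A. XPO5 lies on chromosome 6 at 43522330 to 43576075 on the minus strand (GRCh38) and shares 4.08% of its exon bases with POLR1C on the other strand.

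Of the cytoplasmic pair, TARBP2 was higher in the RL-95-2 mimic library, and DICER1 differed little within a line on TMM-scaled CPM. TARBP2 had 28.7 CPM with the mimic, against 17.7 CPM with the control in RL-95-2, and 13.1 CPM with the mimic, against 12.5 CPM with the control in HEC-1-A. The HEC-1-A pair was within counting error and both RL-95-2 libraries lay above it. The TARBP2 log2 ratio was 0.69 (interval 0.56 to 0.83) in RL-95-2 and 0.07 (interval -0.12 to 0.25) in HEC-1-A, where TARBP2 had the fewest counts of any member. For DICER1 the log2 ratio was 0.17 (interval 0.12 to 0.22) in RL-95-2 and 0.07 (interval 0.00 to 0.14) in HEC-1-A. In RL-95-2 DICER1 was at 0.30 with library totals, 0.33 on log2(FPKM + 0.1) and 0.35 with GC and length trends removed. On the FPKM scale, DICER1 over TARBP2 stood at 0.976 in the RL-95-2 mimic and 1.37 in the RL-95-2 control library, and at 1.14 in the HEC-1-A mimic and 1.12 in the HEC-1-A control library. TARBP2 lies on chromosome 12 at 53500921 to 53506431 on the plus strand (GRCh38), with 0.391% of its exon bases shared with an antisense gene.

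Among the Argonautes of RL-95-2, AGO1 was above its control and AGO4 below. AGO4 had 10.8 CPM in the mimic library, against 21.9 CPM in the control library of RL-95-2. In HEC-1-A, AGO4 had 27.3 CPM with the mimic, against 31.5 CPM with the control. AGO4 was lower with the mimic in both lines, and the RL-95-2 libraries lay below those of HEC-1-A. The AGO4 log2 ratio was -1.01 (interval -1.17 to -0.86) in RL-95-2 and -0.21 (interval -0.33 to -0.09) in HEC-1-A. Its place past 2-fold in RL-95-2 depended on the processing: AGO4 was at -0.88 with scaling by library total, -0.88 with trends on GC content and length removed, -0.83 on log2(FPKM + 0.1) and -0.58 on log2(FPKM + 1), which understates changes of low genes. With library totals and on log2(FPKM + 0.1), DGCR8 was the member past 2-fold instead, at 1.005 and 1.006.

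AGO1 had 91.8 CPM with the mimic, against 68.5 CPM with the control in RL-95-2, and 67.3 CPM with the mimic, against 74.2 CPM with the control in HEC-1-A. The RL-95-2 mimic library stood above the other 3, which lay within 67.3 to 74.2 CPM. The AGO1 log2 ratio was 0.42 (interval 0.35 to 0.49) in RL-95-2 and -0.14 (interval -0.22 to -0.06) in HEC-1-A. AGO1, AGO3 and AGO4 are neighbours on the plus strand of chromosome 1 (GRCh38), AGO4 at 35808172 to 35857890, AGO1 at 35869808 to 35930528 and AGO3 at 35930718 to 36072500. AGO1 and AGO4 thus differed in direction in RL-95-2 although they lie side by side. AGO1 shares 2.85% of its exon bases with a noncoding gene on the other strand, AGO3 0.406%, and AGO4 none.

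AGO2, the Argonaute that cuts targets, had similar levels in both lines. AGO2 had 174 CPM with the mimic, against 212 CPM with the control in RL-95-2, and 187 CPM with the mimic, against 188 CPM with the control in HEC-1-A. The AGO2 log2 ratio was -0.29 (interval -0.33 to -0.24) in RL-95-2 and 0.00 (interval -0.05 to 0.04) in HEC-1-A. AGO3 had log2 ratios of -0.18 (interval -0.26 to -0.09) in RL-95-2 and -0.03 (interval -0.13 to 0.07) in HEC-1-A, and on log2(FPKM + 0.1) its sign turned in both lines, to 0.06 and 0.03.

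Summed over the 4 genes on the FPKM scale, Argonaute mRNA hardly differed in amount, while its make-up did. Between mimic and control, the shares of AGO1, AGO2 and AGO4 differed more in RL-95-2 than in HEC-1-A. No sum was taken on TMM-scaled CPM, and the scales differ. In RL-95-2 the log2 ratio of AGO2, the largest part of the sum, was -0.29 on TMM-scaled CPM and -0.12 on log2(FPKM + 0.1). The summed level was 21.9 FPKM in the RL-95-2 mimic and 22.0 FPKM in the RL-95-2 control library, against 20.7 FPKM in the HEC-1-A mimic and 22.1 FPKM in the HEC-1-A control library. AGO2 made up 53.2% of the sum in the RL-95-2 mimic and 57.6% in the RL-95-2 control library, and 53.7% in the HEC-1-A mimic and 51.6% in the HEC-1-A control library. The AGO1 share was 28.97% in the RL-95-2 mimic library, against 19.6% in its control, and 20.5% in the HEC-1-A mimic library, against 21.7% in its control. The AGO4 share was 6.58% in the RL-95-2 mimic library, against 12.0% in its control, and 16.0% in the HEC-1-A mimic library, against 17.7% in its control. The AGO3 share stayed within 9.07% to 11.3% in all 4 libraries. These shares are of authors' FPKM values with 1 library each, and carry no error.

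**Figure D3:**
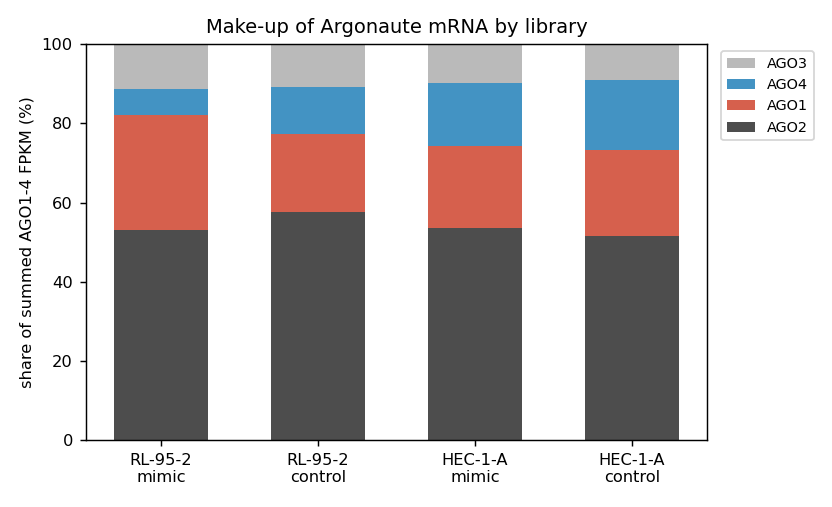
Share of each Argonaute gene in the summed FPKM of AGO1, AGO2, AGO3 and AGO4 in each library (stacked bars from 0 to 100%). AGO1 is widest in the RL-95-2 mimic library at 28.97%, where AGO4 is narrowest at 6.58%.

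TNRC6A, the silencing scaffold, differed little between mimic and control in either line. TNRC6A had 123 CPM with the mimic, against 120 CPM with the control in RL-95-2, and 91.3 CPM with the mimic, against 94.7 CPM with the control in HEC-1-A. Both RL-95-2 libraries lay above both HEC-1-A libraries. Its log2 ratio was 0.03 (interval -0.03 to 0.09) in RL-95-2 and -0.05 (interval -0.12 to 0.01) in HEC-1-A. Both intervals take in 0, but they cover counting error only: in RL-95-2 TNRC6A was at 0.16 with library totals and at 0.17 on log2(FPKM + 0.1).

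Around the members, cofactors of DROSHA and of primary miRNA processing were above 0 throughout in RL-95-2. Of 23 such genes 22 were measured, and 22 of 22 had a log2 ratio above 0, with a median of 0.29, where 50.1% of all measured features lay above 0 and their median was 0.00. In HEC-1-A, 5 of 22 were above 0 and the median was -0.08. At least 2-fold higher in RL-95-2 was 1 of them, beside 4.71% of all measured features, namely SRSF3, a splicing factor that helps DROSHA place its cut, at 360 CPM with the mimic and 140 CPM with the control (log2 ratio 1.37). SRRT, which ties the cap-binding complex to primary miRNAs, had 257 CPM with the mimic and 132 CPM with the control (log2 ratio 0.96). The lowest ratios in RL-95-2 were 0.01 for the RNA editing enzyme ADAR and 0.04 for KHSRP, an RNA-binding protein. In HEC-1-A the highest were 0.26 for ADARB1, another editing enzyme, and 0.08 for METTL14, and the lowest -0.39 for SAFB2 and -0.22 for METTL3, where METTL3 and METTL14 form the enzyme that methylates adenosine in mRNA. With RLE size factors 21 of 22 were above 0 in RL-95-2. On log2(FPKM + 0.1) their median there was 0.43, where that of all features was 0.14.

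Genes of export, DICER1 partnership and Argonaute loading had a median log2 ratio of 0.30 in RL-95-2, with 15 of 20 above 0, beside 50.1% of all features. In HEC-1-A their median was -0.01, with 9 of 19 above 0, beside 53.6% of all features. With library totals 17 of 20 were above 0 in RL-95-2 and 7 of 19 in HEC-1-A, and on log2(FPKM + 1) 17 and 6. Chaperones and cochaperones are among the 20, and their part in these medians was not tested. At least 2-fold higher in RL-95-2 were 3, the chaperones HSPA8 (log2 ratio 3.66) and HSP90AA1 (1.99), which load small RNA duplexes into Argonautes, and the helicase DHX9 (1.26), named after its value was seen, beside 4.71% of all measured features. At least 2-fold lower was 1, beside 6.52% of all measured features, namely XPOT, the exportin of tRNA, at 262 CPM with the mimic and 631 CPM with the control (log2 ratio -1.27). XPOT thus lay on the same side as XPO5 in RL-95-2. PRKRA, a DICER1 partner related to TARBP2, had a log2 ratio of -0.26 in RL-95-2 and 0.33 in HEC-1-A, and the exportin XPO1 had -0.05 and 0.21. In HEC-1-A, HSPA8 had -0.92 and AHSA1, a cochaperone of HSP90, -0.27.

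Genes that act after loading, the other GW182 proteins, deadenylases and decapping factors, lay mostly below 0 in RL-95-2. Of 31 measured genes 8 were above 0, beside 50.1% of all features, with a median log2 ratio of -0.28, and in HEC-1-A 10 of 31 were above 0, beside 53.6% of all features, with a median of -0.04. With library totals the RL-95-2 median was -0.15, where that of all features was 0.13. On log2(FPKM + 1) it was -0.16, where that of all features was 0.11, and 11 of 31 genes were above 0. In neither line was any of the 31 at least 2-fold apart, beside 11.2% of all features in RL-95-2 and 1.11% in HEC-1-A. The lowest in RL-95-2 were PAN2, a deadenylase, at 28.3 CPM with the mimic and 48.4 CPM with the control (log2 ratio -0.78), and DCP1A, a decapping factor, at -0.74. The highest were DDX6, a helicase of translational repression, at 0.59 and EDC4, a decapping scaffold, at 0.54. In HEC-1-A, the decapping enzyme gene DCP2 had 0.16, the exonuclease gene XRN1 0.15, LIMD1 -0.25 and CNOT6L, a deadenylase, -0.22.

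Enzymes that tail, trim or degrade small RNAs had a median log2 ratio of -0.16 in RL-95-2. There 5 of 16 measured genes were above 0, beside 50.1% of all features. In HEC-1-A their median was 0.01, with 12 of 16 above 0, beside 53.6% of all features. The medians of all features were 0.00 in RL-95-2 and 0.02 in HEC-1-A. TOE1, an exonuclease that trims small RNA ends, had 0.87 in RL-95-2 and -0.45 in HEC-1-A, and DIS3L2, which degrades uridylated precursors, had 0.47 and -0.52. ZCCHC11, the terminal uridylyltransferase TUT4, had -0.66 and 0.00. NYNRIN had -0.63 in RL-95-2, and USB1 and PNPT1 had 0.28 and 0.20 in HEC-1-A. With scaling by library total the HEC-1-A median of this list turned to -0.01 with 7 of 16 above 0, and on log2(FPKM + 1) 8 of 16 were above 0 there. In RL-95-2 the median was -0.03 with 7 of 16 above 0 under either of these, where the medians of all features were 0.13 and 0.11. Of the PIWI genes, the germline relatives of Argonautes, 0 of 4 averaged 1 CPM in either line, with sums of 0.284 CPM in the RL-95-2 mimic, 0.102 CPM in the RL-95-2 control, 0.357 CPM in the HEC-1-A mimic and 0.513 CPM in the HEC-1-A control library. None of 32 host transcripts of miRNAs on a further list matched a symbol in the tables, so they were not analysed here.

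**Figure D4:**
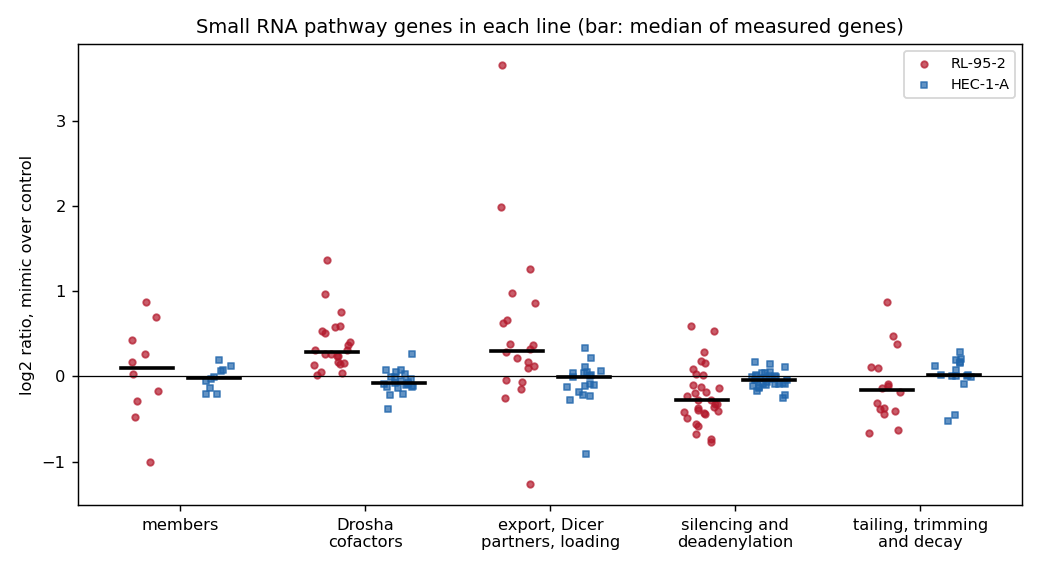
Log2 ratio, mimic over control, of each measured gene of the members and of 4 lists of other small RNA pathway genes, in RL-95-2 (circles) and HEC-1-A (squares), with a bar at the median. All 22 DROSHA cofactors lie above 0 in RL-95-2 with a median of 0.29, while the silencing and deadenylation genes there have a median of -0.28.

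Between the lines, few genes of these lists were called, beside 18.3% of features higher and 16.7% lower in RL-95-2. Of 31 silencing and deadenylation genes 4 were higher and 2 lower in RL-95-2, namely PABPC1, the poly(A) binding protein (log2 fold change 1.05, edgeR adjusted p = 0.0298), EDC4 (1.02, adjusted p = 0.0213), CNOT9 (0.78, adjusted p = 0.0407) and PATL1 (0.74, adjusted p = 0.0458) on the higher side, and FXR1 (-0.85, adjusted p = 0.0371) and TNRC6B, a paralog of TNRC6A (-0.76, adjusted p = 0.0436). Of 23 DROSHA cofactors 2 were higher, SRRT (1.06, adjusted p = 0.0341) and ILF2 (0.99, adjusted p = 0.0344), and 2 lower, ADARB1 (-1.84, adjusted p = 0.0017) and the cap-binding protein gene NCBP1 (-0.87, adjusted p = 0.0312). Of 20 export and loading genes 2 were higher, FKBP5, a cochaperone of HSP90 (6.93, adjusted p = 9.18e-05), and TSNAX, a subunit of a nuclease that clears passenger strands (1.17, adjusted p = 0.00956). FKBP5 had 16 counts in the HEC-1-A mimic and 6 in the HEC-1-A control library and did not average 1 CPM there. The size of its fold change thus rests on values near the floor. Of 16 tailing and decay genes USB1 was higher (0.75, adjusted p = 0.0428) and PAPD5, a poly(A) polymerase also named TENT4B, lower (-1.14, adjusted p = 0.0137). The other genes at the ends of these lists were not called, with log2 fold changes of -1.41 for NYNRIN, 0.79 for TOE1, -0.69 for XPOT, -0.50 for GEMIN5 and -1.97 for PIWIL4, and edgeR adjusted p of 0.0576 to 0.298.

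The 3 members with the widest ratios in RL-95-2 had near neighbours among 10935 named features with a mean of at least 5 CPM, by the Euclidean distance of the 4 log2 CPM values after centring. Nearest to AGO4 were SBF2, IARS and LIMCH1, at distances of 0.02, 0.09 and 0.13. Nearest to DGCR8 were CDKN2A, ALDH5A1 and RECQL4, at 0.04, 0.05 and 0.07. Nearest to TARBP2 were DEPDC1B, SERPINH1 and ITGB5, at 0.04, 0.05 and 0.05. With 4 libraries such a pattern is common: 35, 101 and 201 features lay within a distance of 0.25 of AGO4, DGCR8 and TARBP2.

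Members also differed in how the lines compared with each other. For DGCR8, AGO1 and XPO5, 3 of 10 members, the counting intervals of the lines lay on opposite sides of 0, as for 26.9% of the 11913 features measured in both lines. For AGO4, DROSHA and DICER1, both intervals lay on the same side. The HEC-1-A interval of DICER1 barely left out 0, with a lower limit of 9.98e-05. Its log2 ratio there was 0.07, and 0.05 with library totals. A difference between the lines could not be tested, since each line had 1 pair of libraries.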

How the data were processed

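Poly(A) RNA of 4 libraries was sequenced. The authors deposited raw counts and FPKM values per gene, made with CASAVA, HISAT2 and GRCh38 (hg38) per the submitters' processing notes. Which counter, annotation and strand setting they used is not given in the sources used here. Of 22494 features, 2765 have MSTRG names and 27 have symbols that read as dates; all stayed in the library sizes and tests.

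The counts went into edgeR 4.0.16 (R 4.3.3): TMM factors, filterByExpr on transfection, the F test on quasi-likelihood fits, with p adjusted by Benjamini-Hochberg (FDR 0.05). Line and transfection were the model's terms, which left 1 residual degree of freedom, and both contrasts came from it. Pairing of mimic with control rests on the line in the labels. The p-values reflect only how these libraries vary, which may be technical. An SE is the absolute log2 fold change over the square root of F.

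Within a line, the log2 ratio of TMM-scaled CPM used a prior count of 2, with an exact 95% interval for counting error, and features averaging 1 CPM or more counted as measured. Length-scaled levels are the deposited FPKM values.

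Positions and overlaps came from GENCODE release 29 and sequences from RefSeq. All members were named, and of each pathway list the 2 highest and 2 lowest genes in each line and between the lines, with DHX9, CNOT9 and PATL1 added after their values were seen; of the marker lists, sums and defining genes are given. The members and lists were chosen with earlier results of these data known. Alternatives were DESeq2 1.42.0, limma 3.58.1 (voom, or log2 FPKM plus 1 or 0.1), RLE or total scaling, other filters and prior counts, and no block. Removal of GC and length trends, over 18931 features with a match, was chosen after seeing the data.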

Additional observations from a re-analysis of the deposited data

Results flagged for a closer look

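For 3 of 10 members the mimic libraries of the lines moved opposite ways beyond counting error, and this difference was not tested. The share was near that of all features, 26.9% of the 11913 measured in both lines. The log2 ratio in RL-95-2 minus that in HEC-1-A was 1.08 for DGCR8, 0.56 for AGO1 and -0.68 for XPO5.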

How the results depend on the processing

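Called members of RL-95-2 over HEC-1-A numbered 2 with at least 1 CPM in all 4 libraries and 3 on log2(FPKM + 0.1), against 1, and called features 3344 with that filter, against 5594. Members at least 2-fold apart in RL-95-2 numbered 0 on log2(FPKM + 1) and 0 with GC and length trends removed, against 1. With library totals and on log2(FPKM + 0.1) the count stayed at 1, but DGCR8 (1.005 and 1.006) took the place of AGO4 (-0.88 and -0.83). Features at least 2-fold apart in RL-95-2 numbered 727 on log2(FPKM + 1) and 941 at a minimum of 5 CPM, against 1476. In HEC-1-A they numbered 26 and 29, against 144. Mimic over control, DESeq2 called 2 features, log2(FPKM + 1) 2 and log2(FPKM + 0.1) 3, against 0, with no member among them. With no replicate block, calls numbered 0 for the mimic and 6646 between the lines, and the members called numbered 0 and 1. In RL-95-2, scaling by library total and log2(FPKM + 0.1) moved the median of all features to 0.13 and 0.14, and the share higher among those 2-fold apart from 41.9% to 55.8% and 57.2%. In HEC-1-A the share higher was 50% on log2(FPKM + 1), against 78.5%. Under the within-line alternatives the sign turned for AGO3 alone among the members. DICER1 kept an adjusted p under 0.05 in every alternative fit (0.00148 to 0.0341). Without RL-95-2 or HEC-1-A, no test over both lines remained. The cause of these shifts was not tested.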

Other observations

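Counts and FPKM of a gene together give the length the authors' FPKM values imply. For AGO3 this length was 19.6 kb in the RL-95-2 mimic and 21.1 kb in the RL-95-2 control library, against 20.2 kb in the HEC-1-A mimic and 21.3 kb in the HEC-1-A control library. It was shorter with the mimic in both lines, and AGO3 is the member whose ratio changed sign between the deposited units. For DROSHA it was 5.44 kb in the RL-95-2 mimic library and 5.13 kb in its control, and in HEC-1-A 5.11 kb with the mimic and 5.24 kb with the control. For DGCR8 it was 5.03 to 5.09 kb in all 4 libraries. The step that made these lengths differ between libraries is not given in the sources used here.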
